A study of Mus musculus with 7 samples.

Results

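The fusion of mononuclear precursors into multinucleated osteoclasts (OCs) depends in part on proteins of the cell surface. PU.1 and MITF binding was examined here at 9 genes known for roles in this fusion: Dcstamp, Atp6v0d2, Cd9, Cd81, Cd47, Sirpa, Cd44, Adam8 and Adam12. A peak was assigned to a gene when its centre lay in the gene or within 50 kb of either end on the mouse genome build mm9, in which Dcstamp is annotated as Tm7sf4. The 9 genes are 9 of 22380 protein-coding genes of the annotation. Their windows held 149 of 76243 PU.1 peaks in myeloid precursors (MPs), 137 of 71941 at 36 h and 154 of 77072 in OCs, and 14 of 5413, 8 of 3540 and 13 of 4443 MITF peaks at the same times.

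All cells were bone marrow cells of mice labelled C57BLACK6, aged 4 to 6 weeks, grown for 3 days in 50 ng/ml CSF1, the cytokine that keeps myeloid precursors alive. MPs received no RANKL, the cytokine that drives OC formation, while the other cells received 100 ng/ml RANKL for 36 h or for 72 h (OC). Chromatin was precipitated with 5 micrograms of antibody to PU.1 or MITF at each of the 3 times, and with non-specific IgG in MPs only. Each condition is 1 library with no replicate, so every interval and every exact test covers counting error only and compares libraries, not conditions. The labels do not say how many mice were used. None of these libraries is of RNA, so the labelled cell type could not be checked against its markers in these samples. Values are HOMER Peak Scores, the tags in a peak scaled to a common library size, and 1 tag was worth 1.71 in the PU.1 MP library, 1.48 at 36 h and 1.47 in OCs, against 1.04, 0.973 and 1.14 for MITF. The lists keep only peaks above a minimum, with lowest scores of 10.2 to 10.3 for PU.1 and 9.1 to 9.7 for MITF. The 36 h lists have wider peaks, 190 bp against 150 bp for PU.1 and 150 to 1387 bp against 150 bp for MITF, so a setting of peak calling and the time of RANKL cannot be told apart at 36 h. The median MITF score was 23.4 at 36 h against 12.5 in MPs and 11.4 in OCs, and the wider peaks move with it.

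Precursors of OCs first meet and adhere, and their membranes then merge so that many nuclei share 1 cytoplasm. Dcstamp, a transmembrane protein named for dendritic cells, is required for this merging, and Atp6v0d2, a subunit of the vacuolar proton pump, is needed for efficient fusion. Tetraspanins (Cd9, Cd81), the self-recognition pair Cd47 and Sirpa, the hyaluronan receptor Cd44 and the membrane-anchored ADAM proteins (Adam8, Adam12) act at the contact between the cells. PU.1 is an ETS-family factor of the myeloid lineage whose core motif reads GAGGAA, and MITF is a basic helix-loop-helix factor that binds E-boxes such as CACGTG and CACATG.

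The following 7 sequences, read from mm9 on the forward strand as 150 bases around the centre of the highest peak of a site, are those on which the results turn. They are the highest PU.1 sites of Atp6v0d2, Sirpa, Cd81, Adam8 and Dcstamp, the highest MITF site of Cd81, and the 1 PU.1 site that changed between times in the exact test, which was added after its values were seen. Capitals mark the PU.1 core GAGGAA, which reads TTCCTC on the other strand. They also mark the E-box CACATG, which reads CATGTG there, the E-box CACGTG and the AP-1 motif TGANTCA.
Atp6v0d2 intron 2, chr4:19821847-19821996: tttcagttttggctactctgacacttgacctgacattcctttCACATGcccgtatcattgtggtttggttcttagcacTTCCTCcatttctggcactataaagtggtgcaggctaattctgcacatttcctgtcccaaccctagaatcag
Sirpa upstream, chr2:129411983-129412132: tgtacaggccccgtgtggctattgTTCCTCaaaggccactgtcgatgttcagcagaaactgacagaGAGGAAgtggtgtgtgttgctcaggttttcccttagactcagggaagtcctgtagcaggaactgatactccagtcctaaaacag
Cd81 far upstream, chr7:150224577-150224726: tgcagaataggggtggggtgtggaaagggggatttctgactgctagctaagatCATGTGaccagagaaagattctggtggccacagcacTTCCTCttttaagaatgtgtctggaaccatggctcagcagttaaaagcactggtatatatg
Cd81 near upstream, chr7:150232321-150232470: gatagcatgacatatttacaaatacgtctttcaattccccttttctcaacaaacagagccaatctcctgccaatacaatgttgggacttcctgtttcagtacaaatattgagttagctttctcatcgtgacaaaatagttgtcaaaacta
Adam8 downstream, chr7:147160380-147160529: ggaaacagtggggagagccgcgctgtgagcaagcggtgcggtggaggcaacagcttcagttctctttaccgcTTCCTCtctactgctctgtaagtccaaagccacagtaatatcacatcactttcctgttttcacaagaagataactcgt
Dcstamp downstream, chr15:39609079-39609228: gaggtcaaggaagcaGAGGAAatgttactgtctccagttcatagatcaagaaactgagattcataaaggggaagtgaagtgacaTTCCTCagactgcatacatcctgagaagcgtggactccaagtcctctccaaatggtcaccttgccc
Atp6v0d2 upstream, chr4:19869545-19869694: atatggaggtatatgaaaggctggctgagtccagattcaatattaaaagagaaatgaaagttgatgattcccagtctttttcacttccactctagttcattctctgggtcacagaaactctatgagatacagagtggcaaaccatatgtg
The PU.1 core stood in 5 of these sequences and CACATG in 2, those of Atp6v0d2 intron 2 and the far upstream site of Cd81. The near upstream site of Cd81 and the upstream site of Atp6v0d2 held none of the 4 motifs in these windows. Only these exact letters were searched, and variants of the motifs were not counted.

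PU.1 occupied the fusion genes densely before RANKL was added, and most of its stronger sites were in the lists of all 3 times. The 9 windows had a median of 16 PU.1 peaks in MPs, 16 at 36 h and 18 in OCs, where the median over 22367 protein-coding genes (without the mitochondrial ones) was 6 at each time. Per 100 kb of window the medians were 11.5, 11.0 and 12.3 peaks against 4.72, 4.64 and 4.85 over all genes. Adam12 was the exception, with 4 peaks in MPs, 2 at 36 h and 2 in OCs over the widest window of 448.9 kb. Peaks of the 3 lists that shared at least 1 bp were merged into 198 PU.1 sites, of which 94 lay in introns, 95 between genes and 9 in exons, and 8 lay within 1 kb of a member's start. Here and below, the start of a member is the 5' end of its annotated gene, and starts of its other transcripts are left out. With every annotated transcript start counted, 145 of the 198 sites were nearer to a start of a member than to that of any other coding gene. No IgG peak lay in any window of the 9 genes.

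Of the 198 sites, 98 were called at all 3 times, 46 at 2 and 54 at 1. This share of 49.5% (95% Wilson interval 42.6 to 56.4) stood beside 50.5% over all 102376 PU.1 sites, which lies in that interval. The sites called once were weak, with a median of 9 tags (6 to 35) in their 1 list, whereas those called at all 3 times had a median of 32 tags (8 to 187) in their highest list. Over all PU.1 sites the medians were 8 and 27 tags. Of the 83 sites with at least 20 tags in a list, 71 were called at all 3 times (85.5%, Wilson interval 76.4 to 91.5), against 91.2% of all such sites. Among the sites called once, 19 were of MPs, 16 of 36 h and 19 of OCs.

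**Figure D1:**
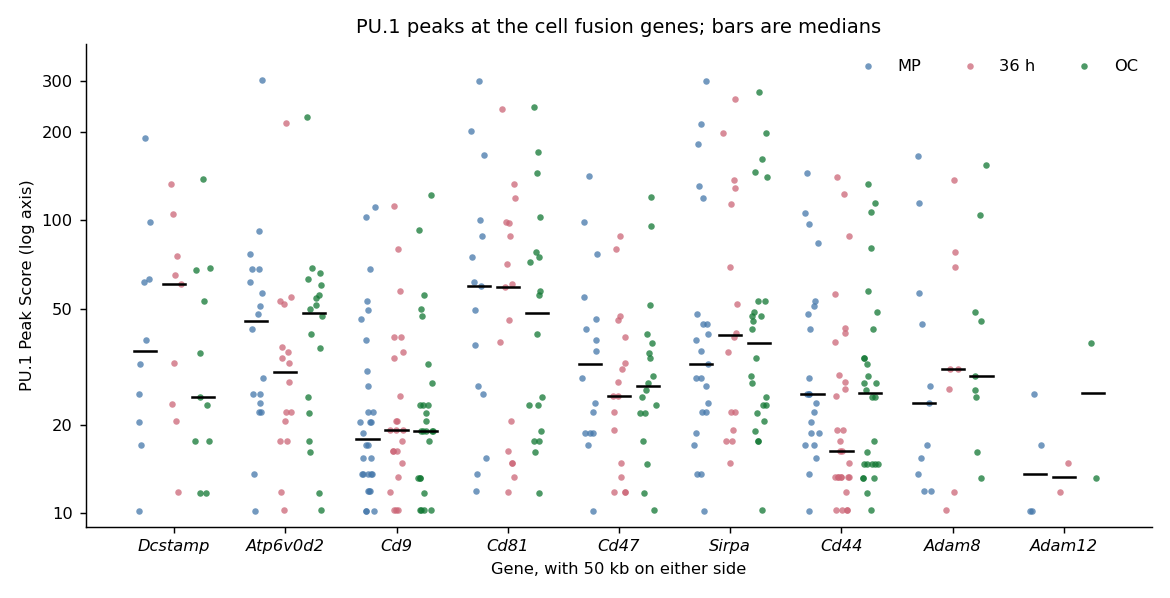
PU.1 Peak Score (log axis) of every peak at the 9 genes in MPs, at 36 h and in OCs, 1 point per peak, with black bars at the medians. Atp6v0d2, Cd81 and Sirpa have a peak of 215.8 or more at each of the 3 times, and no peak of Adam12 exceeds 38.2.

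Dcstamp had 10 PU.1 peaks in MPs, 9 at 36 h and 11 in OCs, merged into 12 sites, none of which lay inside the gene. The highest site was 31.7 kb downstream of its start, in an intron of the neighbouring gene Dpys, with scores of 191.0 (95% exact Poisson interval 157 to 230) in MPs, 133.0 (107 to 164) at 36 h and 138.0 (112 to 169) in OCs. MPs were highest there, but the MP interval overlapped the others and no pair of times passed the exact test (adjusted p of 0.478 and above). The site over the Dcstamp start, 72 bp upstream, scored 39.2 in MPs, 65.0 at 36 h and 35.2 in OCs. Its 36 h value was 1.81-fold the MP value after scaling (adjusted p = 0.306, exact binomial test) and its OC value was close to that of MPs. A further site 8.26 kb upstream scored 98.9, 104.9 and 69.0. No MITF peak lay in the Dcstamp window at any time.

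Atp6v0d2, Sirpa and Cd81 carried the highest PU.1 scores, Atp6v0d2 being above Sirpa by 1 tag in MPs and below both at 36 h and in OCs. The Atp6v0d2 site in intron 2, 27.8 kb into the gene, scored 301.9 (259 to 350) in MPs, 215.8 (182 to 254) at 36 h and 226.1 (192 to 265) in OCs. Its score in MPs ranked 114 of 76243 peaks. After scaling by the median of all shared sites the MP to OC fall was 1.31-fold, which did not pass the exact binomial test (adjusted p = 0.429). Next to it in the same intron, 24.3 kb into the gene, a site scored 92.1, 51.7 and 69.0. A site 66.4 kb from the start, beyond the 3' end, scored 68.2 in MPs and 66.1 in OCs and had no peak at 36 h, where the nearest peak lay 2353 bp away.

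The one PU.1 site at the 9 genes that passed the exact test lay 19.9 kb upstream of Atp6v0d2. It scored 76.8 (56.0 to 103) in MPs, 22.2 (12.4 to 36.6) at 36 h and 41.1 (27.3 to 59.4) in OCs, from 45, 15 and 28 tags. The MP and 36 h intervals did not overlap. The fall from MPs to 36 h was 3.18-fold after scaling (-1.67 on the log2 scale), with an adjusted p of 0.00937 in the exact binomial test over 56378 shared sites, while the partial return from 36 h to OCs (1.72-fold, adjusted p = 0.886) and the difference of OCs from MPs (1.84-fold lower, adjusted p = 0.404) did not pass. The 36 h peak was 190 bp wide, the others 150 bp, and the part of the calling of that list in the fall was not tested.

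The tetraspanin gene Cd9 had the most sites, 39, but moderate scores. Its PU.1 peaks numbered 30 in MPs, 23 at 36 h and 26 in OCs, and the MP number was above that of 99.2% of protein-coding genes. The 2 highest sites were 6.66 kb upstream, in an intron of the non-coding RNA gene Gm16749, with scores of 102.3, 79.8 and 121.9, and 70.5 kb from the start beyond the 3' end, with 110.9, 112.3 and 92.5. The site nearest the Cd9 start, 704 bp downstream in intron 1, was weak at 13.6, 16.3 and 23.5. Cd81, the related tetraspanin, had 15, 17 and 18 peaks, and its window also holds the starts of Kcnq1, Trpm5, Tspan32 and Tssc4. Its highest sites were 14.0 kb upstream, with 298.5, 240.9 and 243.8, 6.26 kb upstream, with 201.3, 133.0 and 171.8, and 6.88 kb downstream of the start in intron 1, with 167.2, 119.7 and 145.4. Both upstream sites lie in introns of the non-coding RNA gene R74862. All 3 had their highest score in MPs, and none passed the exact test in any pair of times. Within 1 kb of the Cd81 start the lists held 1 site, 650 bp upstream, in OCs alone with 19.1. A site 5.85 kb into the gene, 11 bp from the start of another Cd81 transcript, scored 27.3 in MPs and 23.5 in OCs. It had no 36 h peak.

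A PU.1 site 11.5 kb upstream of Cd81 was absent from the MP list and strong later, with 71.0 (52.3 to 94.1) at 36 h and 55.8 (39.5 to 76.6) in OCs. The nearest MP peak lay 2518 bp away. Of 25814 PU.1 sites with at least 20 tags at both 36 h and OC, 280 (1.08%) were missing from the MP list, and this was the 1 case among the 53 such sites at the fusion genes. Missing from the 36 h list were 5 of 59 sites with at least 20 tags in both other libraries, against 692 of 25460 (2.72%) over all sites. Besides the Atp6v0d2 site these were 1 at Cd9, 1 at Cd47 and 2 at Sirpa. For the Cd9 site and 1 of the Sirpa sites a 36 h peak lay within 500 bp, 315 and 307 bp away, so there the lists differ in position as well. Missing from the OC list were 0 of 51 sites, against 157 of 23670 (0.663%) over all sites. Since tags outside peaks were not analysed here, an absent peak cannot be read as absent binding.

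Cd47, an integrin-associated surface protein, and Sirpa, the inhibitory receptor that binds it, had equal median PU.1 scores in MPs (32.4) and unequal highest ones. Cd47 had 16 PU.1 peaks in MPs, 17 at 36 h and 18 in OCs, the highest of them 3.07 kb from the start in intron 1, with scores of 141.6, 88.7 and 120.4. No site lay within 1 kb of its start. Sirpa had 23, 16 and 24 peaks. Its highest site, 6.51 kb upstream, scored 300.2 (258 to 348), 260.2 (223 to 302) and 274.6 (237 to 317), with intervals that all overlap, and the OC score ranked 80 of 77072 peaks. A site 3.31 kb downstream of the start, in intron 2, scored 213.2, 198.1 and 198.2, and the site 185 bp upstream of the Sirpa start scored 40.9, 39.9 and 52.9. A site 40.7 kb from the start, just beyond the 3' end, scored 131.3, 137.5 and 161.5.

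Cd44 had 22 PU.1 peaks in MPs, 29 at 36 h and 28 in OCs. Its highest site lay 42.6 kb upstream with scores of 145.0, 140.4 and 133.6, nearly level over the 3 times. A site 49.4 kb into the gene, in intron 5 of the longest coding transcript where another transcript has an exon, scored 97.2, 122.7 and 114.5, and a site 24.0 kb from the start in intron 1 scored 105.8, 88.7 and 107.2. At the Cd44 start only 2 weak sites were listed, 1 in OCs alone with 14.7 and 1 with 10.3 at 36 h and 13.2 in OCs, close to the lowest scores of the lists.

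Adam8 and Adam12, both metalloproteases with a disintegrin domain, were with Dcstamp the members with the fewest PU.1 peaks at each time. Adam8 had 11, 8 and 9 PU.1 peaks. Its highest site, 18.0 kb from the start and beyond the 3' end in an intron of Spef1l (annotated as 6430531B16Rik), scored 165.5, 137.5 and 154.2, and a site in intron 23 of Adam8 scored 114.3, 78.3 and 104.3. The site 325 bp upstream of the Adam8 start scored 56.3, 69.5 and 48.5, and a site 46 bp downstream of the start was listed in OCs alone with 16.2. At Adam12 the highest site was 32.6 kb upstream and scored 25.6, 14.8 and 38.2, from 15, 10 and 26 tags. No site lay within 1 kb of the Adam12 start, and MITF had no peak in its window.

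**Figure D2:**
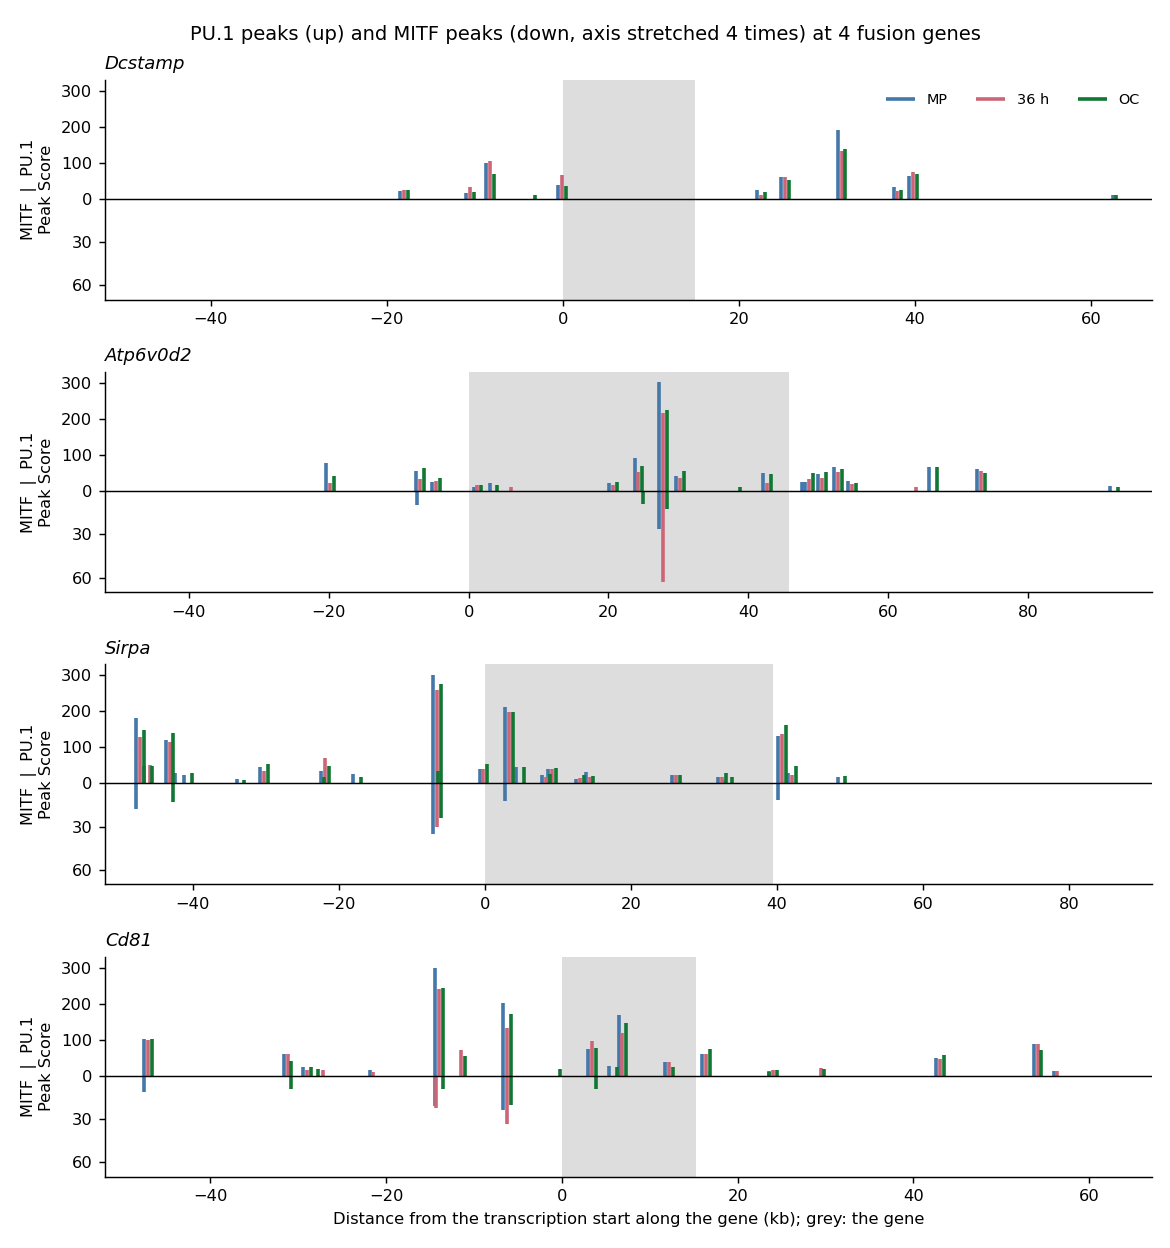
PU.1 Peak Score (upward lines) and MITF Peak Score (downward lines, on an axis stretched 4 times) against the distance in kb from the start of Dcstamp, Atp6v0d2, Sirpa and Cd81, with the gene in grey and the 3 times side by side. MITF lines stand under the tallest PU.1 lines of Atp6v0d2, Sirpa and Cd81, and Dcstamp has none.

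The sizes of PU.1 peaks at the fusion genes were then compared between times, beside all shared sites of the genome. Between MPs and 36 h, 107 member sites were shared, of which 4 were at least 2-fold higher at 36 h (3.74%, against 4.03% of all shared sites) and 3 at least 2-fold lower (2.8%, against 3.41%). The exact test called 1 of 107 (0.935%), against 1.05% of all, and 12 had an unadjusted p under 0.05 (11.2%, against 10.9%). From 36 h to OCs, 4 of 112 sites were at least 2-fold higher (3.57%, against 2.01%) and 5 at least 2-fold lower (4.46%, against 2.61%), and none was called, against 0.0707% of all. An unadjusted p under 0.05 was reached by 13 of the 112 (11.6%, Wilson interval 6.91 to 18.9), above the 6.45% of all sites. From MPs to OCs, 3 of 121 sites were at least 2-fold higher (2.48%, against 3% of all) and 3 at least 2-fold lower (2.48%, against 2.38%), none was called (0.156% of all), and 7 had an unadjusted p under 0.05 (5.79%, against 7.83% of all sites). The Wilson intervals of the member shares past 2-fold and of those called held the share of all sites in each comparison, and that of the unadjusted p from 36 h to OCs did not. These intervals treat neighbouring sites as independent, and tag depth was not matched between member sites and all sites. The median log2 fold change of the member sites was -0.08, 0.08 and -0.03 in the 3 comparisons, where scaling sets that of all sites at 0.

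Among the sites at least 2-fold apart with 20 or more tags in 1 of the 2 libraries, none lay within 1 kb of a member's start, where 4.04% of the 198 sites lie. In intron 3 of Cd47 a site scored 42.6, 11.8 and 27.9, the lowest value again being that of 36 h (adjusted p = 0.104 from MPs, exact binomial test). A site 42.7 kb into Atp6v0d2 did the same with 51.2, 22.2 and 47.0 (adjusted p = 0.279, exact binomial test). A site 21.9 kb upstream of Sirpa ran the other way, with 35.8, 69.5 and 47.0 (adjusted p = 0.125, exact binomial test), as did sites 10.5 kb upstream of Dcstamp (17.1, 32.5 and 17.6), 15.2 kb upstream of Cd9 (20.5, 39.9 and 19.1) and 83.4 kb from the start of Cd47 (18.8, 39.9 and 25). Another distal site of Cd47, 107 kb from its start, scored 23.9, 31.0 and 11.7. Near Cd44, a site within Slc1a2 had no MP peak and scored 42.9 at 36 h and 11.7 in OCs (adjusted p = 0.138, exact binomial test), and sites 12.7 kb upstream and 110 kb from the start were lowest at 36 h, with 42.6, 25.1 and 57.3 and with 25.6, 13.3 and 33.8. From MPs to OCs, a site 48.7 kb from the start of Atp6v0d2, just beyond the 3' end, went from 25.6 through 34.0 to 51.4, and a site 58.9 kb from that of Cd9 from 15.4 to 32.3 with no 36 h peak, while a site 44.9 kb from the start of Cd9 went from 39.2 through 19.2 to 19.1. The Adam12 site 32.6 kb upstream passed 2-fold from 36 h to OCs. No comparison at any of these sites passed the exact test.

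**Figure D3:**
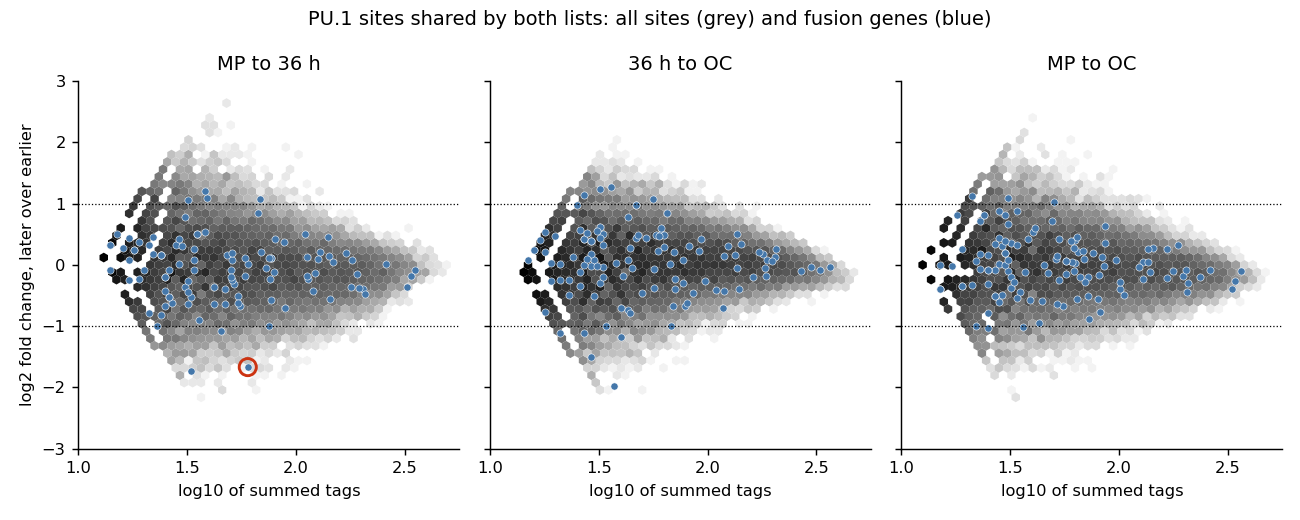
Log2 fold change of PU.1 tags (later over earlier, scaled by the median) against log10 of the summed tags for the sites shared by 2 lists, with all sites in grey, sites of the fusion genes in blue and dotted lines at 2-fold. The ringed point, 19.9 kb upstream of Atp6v0d2 at -1.67, is the 1 member site called by the exact test.

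MITF had peaks at 7 of the 9 fusion genes, merged into 22 sites. Cd81 had 6 of them, Sirpa 5, Atp6v0d2 3, and Cd9, Cd47, Cd44 and Adam8 2 each, while Dcstamp and Adam12 had none. With every annotated transcript start counted, 17 of the 22 were nearest a start of a member. The rest were sites at Cd81 (nearest Tspan32), Sirpa (nearest F830045P16Rik) and Adam8 (nearest Spef1l). This Adam8 site is the 1 called there at all 3 times. Over all protein-coding genes, 32.1% had a MITF peak in the same window in MPs, 24.0% at 36 h and 28.8% in OCs, against 6, 6 and 7 of the 9 members. Of the 22 sites, 5 were called at all 3 times (22.7%, Wilson interval 10.1 to 43.4, against 26.1% of all 7693 MITF sites) and 14 at 1 time. The 5 lay at Atp6v0d2, Cd81, Sirpa, Cd44 and Adam8, 1 at each gene.

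MITF peaks at the fusion genes lay on PU.1 peaks, as over the whole lists. Of 35 MITF peaks of the 3 lists at these genes, 34 overlapped a PU.1 peak of the same time by at least 1 bp (97.1%), against 95.3% of all 13396 MITF peaks of the 3 lists. The remaining one, a 36 h peak 14.4 kb upstream of Cd81 with a score of 22.4, lay beside the strong PU.1 site 14.0 kb upstream, on which MITF peaks of 20.8 in MPs and 9.1 in OCs were centred. All 21 PU.1 sites with a MITF peak were called at all 3 times, as were 98.1% of all PU.1 sites with a MITF peak, and their highest PU.1 scores ran from 61.4 to 301.9 (median 141.0). The 177 PU.1 sites without MITF had a median of 25 (10.2 to 191.0), and 77 of them were called at all 3 times. The highest PU.1 site without MITF was that of Dcstamp, so a strong PU.1 site did not always carry a MITF peak.

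Of the PU.1 peaks at the fusion genes, 14 of 149 overlapped a MITF peak in MPs (9.4%, Wilson interval 5.68 to 15.2), 7 of 137 at 36 h (5.11%, 2.5 to 10.2) and 13 of 154 in OCs (8.44%, 5.0 to 13.9). Over the whole lists the shares were 6.95%, 4.62% and 5.38%, each within the interval of the members.

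**Figure D4:**
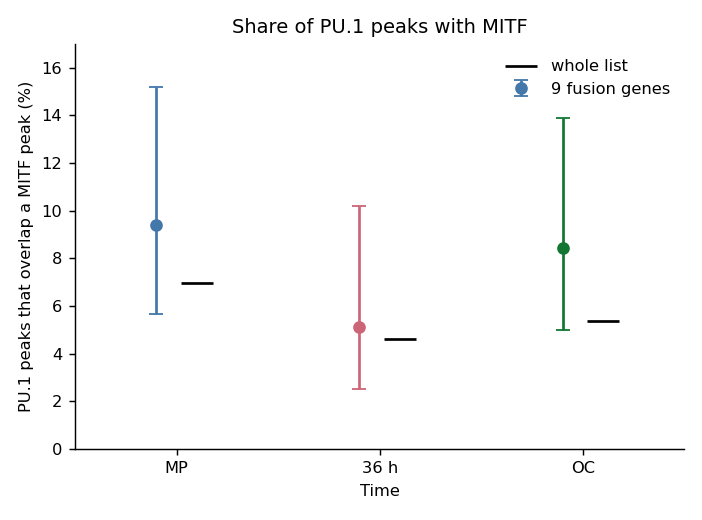
Percent of PU.1 peaks that overlap a MITF peak of the same time, for the 9 fusion genes (points with 95% Wilson intervals) and for the whole list (black bars). The points stand at 9.4, 5.11 and 8.44% and each interval contains the value of the whole list.

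On the intron 2 site of Atp6v0d2 MITF scored 26.0 (16.8 to 38.3) in MPs, 63.3 (48.8 to 80.6) at 36 h and 12.6 (6.27 to 22.5) in OCs, from 25, 65 and 11 tags. The 36 h interval lay above both others, whereas those of MPs and OCs overlapped. The 36 h score was the highest of MITF at these genes, while in MPs and OCs the Sirpa site 6.51 kb upstream was higher. The whole 36 h list was higher too, with a median ratio of 1.74 in tags over MPs at the 2509 shared sites. Relative to that ratio the site was 1.5-fold higher at 36 h than in MPs (adjusted p = 0.267, exact binomial test), and from 36 h to OCs it was 2.79-fold lower (adjusted p = 0.0124, exact binomial test over 2349 shared sites), against 5.02-fold between the deposited scores. The 36 h peak was 246 bp wide and the others 150 bp, and the part of the width in this fall was not tested. PU.1 at the same site was 1.03-fold lower from 36 h to OCs, and the difference between the 2 factors was not tested.

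On the Sirpa site 6.51 kb upstream MITF scored 35.3 (24.5 to 49.4), 30.2 (20.5 to 42.8) and 24.0 (14.8 to 36.7), with intervals that overlap. Relative to the list its 36 h value was 1.9-fold lower than in MPs (adjusted p = 0.0555, exact binomial test). The near upstream site of Cd81 scored 23.9, 33.1 and 20.6, the Adam8 downstream site 17.7, 37.0 and 9.1, and the Cd44 site 49.4 kb into the gene 11.4, 10.7 and 14.8. The Cd81 and Adam8 sites were thus highest at 36 h in the deposited scores, as was that of Atp6v0d2, and the Cd44 site was lowest there. From 36 h to OCs the Adam8 site was 2.25-fold lower (adjusted p = 0.164, exact binomial test) and the Cd44 site 2.5-fold higher (adjusted p = 0.132, exact binomial test) relative to the list. At the Cd44 site the tags were 11 in MPs, 11 at 36 h and 13 in OCs, and the 36 h peak was 150 bp wide. The median ratio of the list from 36 h to OCs, by which these folds are scaled, was 0.473.

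Counted over all, 0 of 5 shared MITF sites were at least 2-fold apart from MPs to 36 h (27.4% of all shared sites) and 0 of 5 were called (15.2% of all). From 36 h to OCs, 3 of 6 were at least 2-fold apart (24.4% of all), those of Atp6v0d2, Adam8 and Cd44, and 1 was called (9.66% of all), that of Atp6v0d2. From MPs to OCs, 1 of 7 was at least 2-fold apart (3.87% of all), the far upstream site of Cd81 at 2.12-fold lower (adjusted p = 1.0, exact binomial test), and 0 of 7 were called, as over the whole list (0% of 2845 sites). None of the 7 had an unadjusted p under 0.05 in that comparison. With 5 to 7 sites these shares have wide intervals, for example 18.8 to 81.2% for 3 of 6.

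The whole MITF lists had lowest scores of 9.3, 9.7 and 9.1 in MPs, at 36 h and in OCs, and medians of 12.5, 23.4 and 11.4. The MITF sites not described above scored 9.1 to 17.7. In MPs these were sites at Cd47 with 12.5 and 11.4, at Sirpa with 17.7, 12.5 and 11.4, at Cd81 with 11.4, at Atp6v0d2 with 9.3 and at Adam8 with 9.3. Only the Cd47 site with 12.5 was listed again in OCs, with 10.3. At 36 h a site at Cd9 scored 9.7, and the Cd44 site 42.6 kb upstream scored 11.7 and then 9.1 in OCs. In OCs alone, MITF scored 12.6 at a distal site of Sirpa, 11.4 at the Cd9 site 6.67 kb upstream and 9.1 at each of a second intron 2 site of Atp6v0d2 and 2 sites of Cd81. At this depth, with 8 to 12 tags in most of these peaks, gain or loss between times was not detectable.

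**Figure D5:**
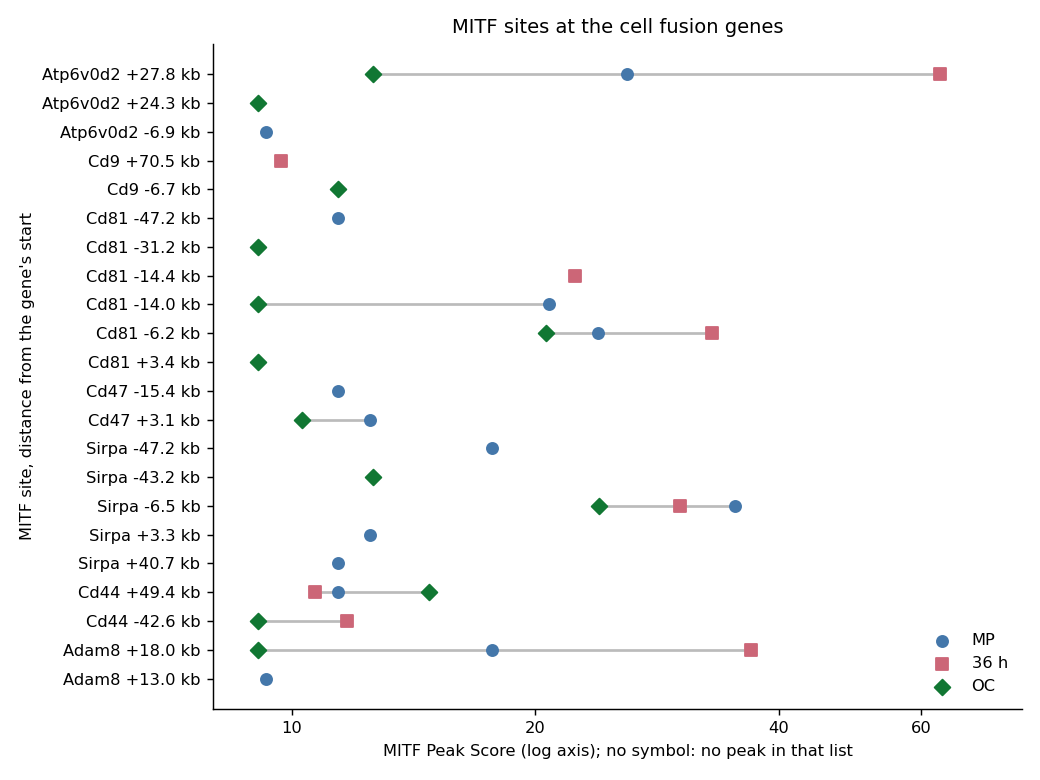
MITF Peak Score (log axis) of the 22 MITF sites at the fusion genes, named by gene and distance from its start, in MPs (circles), at 36 h (squares) and in OCs (diamonds). The Atp6v0d2 site at 27.8 kb spans 12.6 to 63.3, and 14 sites have a symbol for 1 time only.

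In 150 bases around the centres, GAGGAA on either strand occurred at 97 of the 198 PU.1 sites of the fusion genes (49.0%), against 54.0% of 102279 PU.1 sites with sequence. It occurred at 15 of the 21 sites with MITF (71.4%, Wilson interval 50.0 to 86.2), against 67.6% of all PU.1 sites with MITF. CACATG was found at 7 of these 21 (33.3%, 17.2 to 54.6), against 10.8% of all PU.1 sites with MITF. It was found at 17 of the 177 sites without MITF (9.6%), against 11.0% of all PU.1 sites without MITF. Over all PU.1 sites its share was thus nearly equal with and without MITF. Around the centres of the 22 MITF sites it was found at 6 (27.3%, 13.2 to 48.2), against 10.8% of all MITF sites. CACGTG, counted apart from CACATG, was found at none of the 21 and at 5 of the 177 sites, against 2.45% of all PU.1 sites. TGANTCA was found at 18 of the 198 sites (9.09%), against 9.39% of all. The Sirpa sequence printed here holds GAGGAA at 2 places and no E-box of these letters, and the Dcstamp sequence likewise, though MITF had a peak on the first and none on the second.

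A further 10 genes known for roles in macrophage or OC fusion were counted in the same way: Ocstamp, Cd200, Cd200r1, Cdh1, P2rx7, Sh3pxd2a, Cd36, Sbno2, Syna and Ccl2. All 10 had PU.1 peaks at each time, with a median of 12.5 in MPs, 12.5 at 36 h and 13 in OCs. MITF peaks lay at 7 of them in MPs, 5 at 36 h and 5 in OCs. Of their PU.1 peaks in MPs, 70 of 150 lay nearest a start of the gene itself, against 114 of 149 for the 9 members. Ocstamp, a transmembrane protein related to Dcstamp, had 8, 11 and 10 PU.1 peaks with highest scores of 151.8, 150.8 and 130.7. Unlike Dcstamp it had 2 MITF peaks in MPs, the higher of 18.7, with none at 36 h or in OCs. Only 1, 2 and 2 of its PU.1 peaks and 1 of its MITF peaks lay nearest the Ocstamp start. Sh3pxd2a, the podosome scaffold Tks5 gene, had 4, 5 and 3 MITF peaks with highest scores of 27.0, 84.7 and 19.4. The highest PU.1 score of these genes was 324.1 in MPs, at the scavenger receptor gene Cd36, with 193.6 at 36 h and 192.4 in OCs. Cd200, Cd200r1 and P2rx7 had no MITF peak in any list.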

How the data were processed

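PU.1, MITF and IgG ChIP-Seq lists, 1 per library, were grouped by their labels. The authors mapped reads with Bowtie2 to mm9 after CASAVA 1.8 and deposited HOMER peaks whose Peak Score is a signal of scaled tags. HOMER's version and calling settings are not given in the sources used here. Scores were whole multiples of 1 value per list (largest residual 0.0511), which gave tags. At HOMER's default scale of 10000000, which is assumed, PU.1 libraries held 5860000 to 6810000 tags and MITF libraries 8760000 to 10300000. Genes came from the GENCODE annotation of the same build. Peaks sharing at least 1 bp formed 1 site. Tags of shared sites were compared by a two-sided exact binomial test against the median ratio of all shared sites, Benjamini-Hochberg adjusted over them, and called at adjusted p under 0.05 and 2-fold (Python 3.11.15 with scipy, tested on simulated data). Wilson and exact Poisson intervals (95%) cover counting error only. Motif shares leave out 97 PU.1 and 50 MITF sites on unplaced sequence. Described were each member's highest PU.1 site, the PU.1 site nearest its start within 1 kb, every MITF site and every site past 2-fold with 20 tags in 1 library. The members and lists were chosen with earlier results of these data known. Columns of annotation in the lists were not used.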

Additional observations from a re-analysis of the deposited data

How the results depend on the processing

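The counts and shares were recomputed with windows of 25 kb and 100 kb, with the peaks nearest a member's start only, with scores at least 2 times the lowest of the list, without peaks over IgG, with sites matched by centres within 100 bp, with the ratio of library sizes, with peaks set to 150 bp, and, added after the data were seen, with centres within 500 bp. Of 102 such values, 92 stayed within 1.5 times the count or within the Wilson interval of the share. The IgG rule removed no peak at the 9 genes, so its values, counted among the 92, were no test. The values with peaks set to 150 bp equalled those given above. Of the values that did move, most were changed by the higher minimum score. The higher minimum left 127 PU.1 sites (198 before) and 6 MITF sites (22 before), co-binding of 3.96% in MPs and 1.923% in OCs, and 4, 1 and 1 PU.1 sites past 2-fold in the 3 comparisons (7, 9 and 6 before). It removes weak peaks by construction, among them the OC peak of MITF at Atp6v0d2, so that the fall from 36 h to OCs could not be computed there. In each of the other alternatives that fall kept an adjusted p of 1.32e-07 to 0.0126 (exact binomial test). Setting peaks to 150 bp kept the deposited tags of the wider 36 h peak, so the part of its width was not tested. With the ratio of library sizes the exact test called 3 PU.1 sites from MPs to 36 h in place of 1, adding 1 at Cd47 and 1 at Cd44. The site upstream of Atp6v0d2 was called in all 9 alternatives (adjusted p 0.00223 to 0.0113, exact binomial test). The windows, the nearest-start rule, the IgG rule and the 150 bp width left the tags of both Atp6v0d2 sites unchanged. Those alternatives were therefore no test of either call. The 100 kb window added 1 call from MPs to OCs, far downstream of Cd81 (47.8, 32.5 and 10.3). With centres within 500 bp, 100.0% of the MITF peaks matched a PU.1 peak. No paired analysis was possible because each condition is 1 library.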
